A study of Macaca fascicularis with 10 samples.

Results

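The allelic balance of 5 endothelial genes, VWF, FLT1, PECAM1, ABCB1 and TEK, was measured in 10 female macaques (Macaca fascicularis, the cynomolgus monkey), in RNA of the dorsal raphe nucleus, a serotonin cell group of the brainstem. The genes were taken by symbol from a table of 7229 genes, and all 5 were found. Each animal is a daughter whose labels name a mother and a father, and the table splits the reads of a gene in each daughter into a paternal and a maternal column. The labels give all 10 daughters the same tissue and sex and no treatment, genotype or age, so the alleles were compared within animals. The numbers 1 to 10 given to the daughters follow the order of the labels. Only daughters 4 and 5 (father), 1, 7 and 8 (father), and 6 and 10 (mother) share a labelled parent.

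Endothelial cells line blood vessels, and in the brain they form the blood-brain barrier. VWF encodes von Willebrand factor, a secreted glycoprotein that tethers platelets to damaged vessel walls. FLT1 encodes a receptor for vascular endothelial growth factors, and TEK encodes TIE2, the receptor for angiopoietins, which regulates vessel stability. PECAM1 is an adhesion molecule of endothelial cell junctions that is also carried by platelets and leukocytes. ABCB1 encodes P-glycoprotein, an efflux pump that returns many drugs from the brain endothelium to the blood. In an autosomal gene that is not imprinted, both parental copies are generally transcribed, and a difference in regulatory sequence between the copies can make 1 of them yield more RNA. All 5 genes are autosomal in the gene table of the macaque assembly T2T-MFA8v1.1, with VWF on chromosome 11, FLT1 on 17, PECAM1 on 16, ABCB1 on 3 and TEK on 15. That assembly is not the build of the counts, macFas5.

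Depth differed widely between libraries, from 30090 allelic reads in daughter 1 to 999471 in daughter 6. Over all genes, 49.3% to 50.4% of reads lay in the paternal column. TPH2, the serotonin synthesis enzyme that marks this nucleus, had reads in 7 daughters, from 41 to 5409. An endothelial list of 40 genes had 21 members in the table, the 5 genes and CDH5 among them. Of 20 markers of microglia and blood cells, 2 were found, ITGAX and HBB, with a summed level of 0 to 38.2 CPM of allelic reads per daughter. Since allelic reads need informative positions, this does not measure those cells, and the part of PECAM1 reads from other cells was not tested. A gene has allelic reads only in a daughter with informative positions in it. The 5 genes had them in 42 of 50 possible combinations of gene and daughter, 3806 reads in all, and in 38 with 10 or more reads.

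Levels were expressed as CPM, counts scaled to the total allelic reads of the daughter, and they varied several-fold between animals. VWF had a lowest value of 127, a median of 323 and a highest of 1142 CPM over 10 daughters. FLT1 had 87.7, 169 and 336 CPM over 8 daughters, and PECAM1 6.02, 65.8 and 170 CPM over 8. For ABCB1 the values were 38.3, 71.2 and 167 CPM over 8 daughters, and for TEK 17.2, 40.5 and 78.6 CPM over 8. These totals follow the number of informative positions as well as expression, and in tissue RNA fewer endothelial cells and less RNA per cell cannot be told apart. They were therefore not compared between animals or genes. The ratio of the alleles was taken within 1 animal, where both copies were read in the same sample. Whether that ratio differed between cell types in the tissue was not tested.

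**Figure D1:**
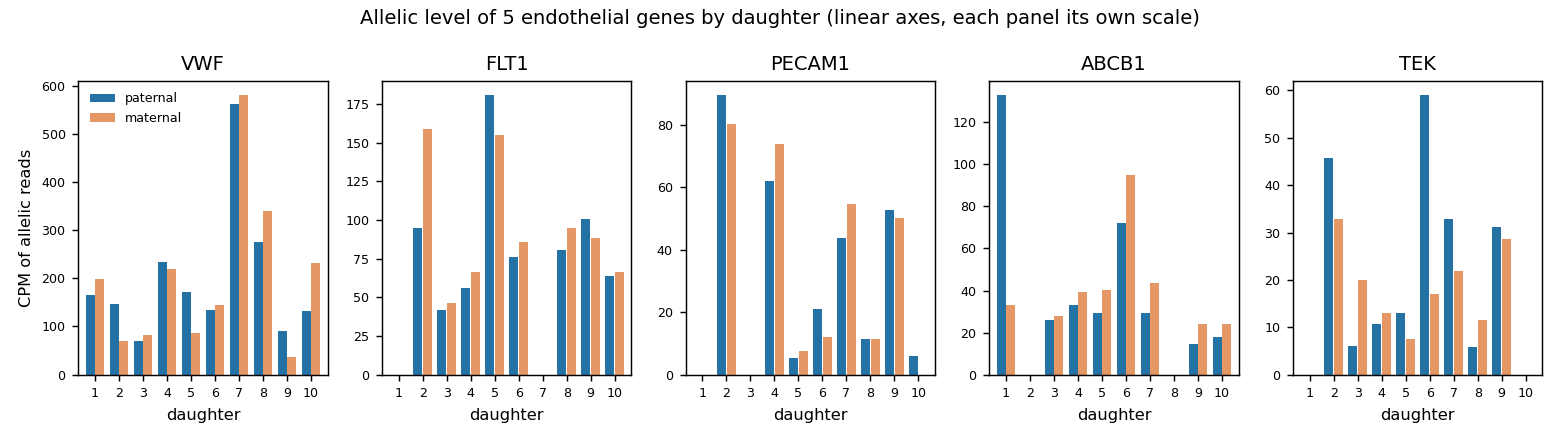
CPM of allelic reads (vertical axes, linear, 1 scale per panel) in the paternal (left bars) and maternal (right bars) column of each daughter (horizontal axes). A daughter with no bars had no value for that gene. VWF reached its highest total, 1142 CPM, in daughter 7, with nearly equal bars, while in daughters 2, 5 and 9 the paternal bar stood well above the maternal one.

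VWF was near balance in 6 daughters and unequal in 4, on sides that differed. Daughter 2 had 80 paternal and 38 maternal reads, daughter 5 had 158 and 80, and daughter 9 had 38 and 15. The paternal share, the percent of reads in the paternal column, was thus 67.8% in daughter 2 (95% Wilson interval 58.9 to 75.6), 66.4% in daughter 5 (60.2 to 72.1) and 71.7% in daughter 9 (58.4 to 82.0). In daughter 10 the maternal copy had more reads, with 66 paternal and 116 maternal, a paternal share of 36.3% (29.6 to 43.5). The paternal copy was thus the higher one in 3 of these animals and the maternal copy in 1.

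In the other 6 daughters the interval of VWF included 50%. Paternal and maternal reads were 5 and 6 in daughter 1, 45 and 54 in daughter 3, 197 and 184 in daughter 4, 135 and 145 in daughter 6, 154 and 159 in daughter 7, and 96 and 118 in daughter 8. Their shares ran from 44.9% in daughter 8 to 51.7% in daughter 4. The equal animals include the 3 with the most VWF reads, 381, 313 and 280. Over all daughters the mean paternal share was 52.7% ± 11.8 (SD, n = 10), with a median of 48.7%, and 974 of 1889 pooled reads were paternal (51.6%, interval 49.3 to 53.8).

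FLT1 was close to balance in 7 of 8 daughters. The exception was daughter 2, with 52 paternal and 87 maternal reads, a share of 37.4% (29.8 to 45.7), where VWF had lain on the paternal side. Elsewhere paternal and maternal reads were 27 and 30 in daughter 3, 47 and 56 in daughter 4, 166 and 142 in daughter 5, 76 and 86 in daughter 6, 28 and 33 in daughter 8, 42 and 37 in daughter 9, and 32 and 33 in daughter 10. These 7 shares ran from 45.6% to 53.9% and every interval included 50%. The mean was 47.4% ± 5.13 (SD, n = 8).

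TEK, the other receptor, covered the widest range of the 5 genes, with few reads. In daughter 6 it had 59 paternal and 17 maternal reads, a share of 77.6% (67.1 to 85.5). In daughter 3 it had 4 paternal and 13 maternal reads, 23.5% (9.56 to 47.3). The other daughters with 10 or more reads had 25 paternal and 18 maternal reads in daughter 2, 9 and 11 in daughter 4, 12 and 7 in daughter 5, 9 and 6 in daughter 7, and 13 and 12 in daughter 9. Their shares ran from 45% to 63.2%, and at 15 to 43 reads their intervals all included 50%. The mean was 54.2% ± 16.9 (SD, n = 7). Of its 221 pooled reads 60.2% were paternal, but 76 of the 221 came from daughter 6.

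PECAM1 showed no unequal daughter at its depth. Paternal and maternal reads were 49 and 44 in daughter 2, 52 and 62 in daughter 4, 5 and 7 in daughter 5, 21 and 12 in daughter 6, 12 and 15 in daughter 7, and 22 and 21 in daughter 9. The lowest share was 41.7%, in daughter 5, and the highest was 63.6%, in daughter 6 (46.6 to 77.8). The mean was 49.9% ± 7.92 (SD, n = 6). Daughters 8 and 10 had only 8 and 3 reads and were left out of the mean.

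ABCB1 leaned to the maternal copy by a small amount in every daughter with 10 or more reads. Paternal and maternal reads were 17 and 18 in daughter 3, 28 and 33 in daughter 4, 27 and 37 in daughter 5, 72 and 95 in daughter 6, 8 and 12 in daughter 7, 6 and 10 in daughter 9, and 9 and 12 in daughter 10. The paternal share ran from 37.5% to 48.6% and no single interval left out 50%. The mean was 42.9% ± 3.64 (SD, n = 7). Daughter 1, with 4 paternal reads and 1 maternal read, fell below the minimum and lay on the other side. With it included the mean was 47.5% ± 13.6 (SD, n = 8). Pooled over all 8 daughters, 171 of 389 reads were paternal (44.0%, interval 39.1 to 48.9). Its near copy ABCB4, which encodes a lipid pump of the liver, had 2 reads in daughter 3 and 5 in daughter 6, so whether reads were split between the copies could not be examined.

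**Figure D2:**
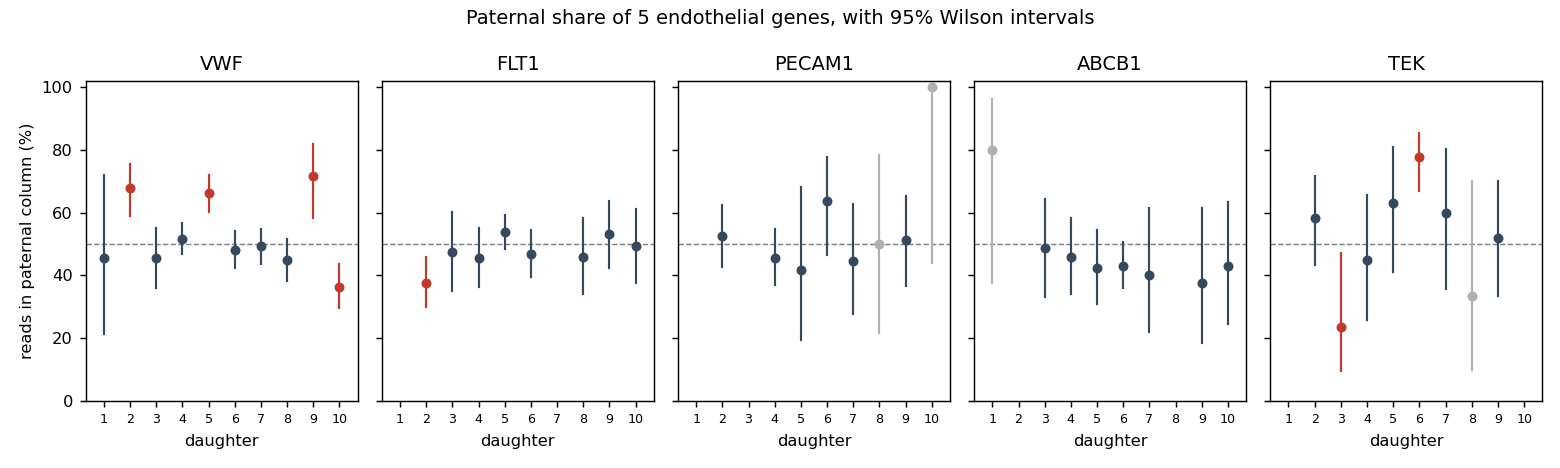
Percent of reads in the paternal column (vertical axis) for each gene and daughter (horizontal axis), with 95% Wilson intervals as lines and 50% dashed. Red marks intervals that leave out 50%, including daughter 3 for TEK with 17 reads, and grey marks values from under 10 reads. VWF was unequal in daughters 2, 5, 9 and 10, FLT1 in daughter 2 and TEK in daughter 6, while ABCB1 sat below 50% in all 7 daughters with 10 or more reads.

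The first comparison asked whether 1 parental copy was read more across animals. In edgeR's quasi-likelihood test with the animal as block, none of the 5 genes was called, and 0% of the 2981 genes tested were. DLK1, with a log2 ratio of paternal over maternal counts of 2.68 ± 1.81 (SE), was not called either. A large ratio can thus go uncalled, and the lack of a call does not show balance. Without adjustment, 93 genes had a p under 0.05 with edgeR, 62 with DESeq2, which also called 0, and 83 with an exact sign-flip permutation test over daughters, which called 0 after adjustment. All 5 genes were among those tested. The log2 ratio of paternal over maternal counts was 0.16 ± 0.19 for VWF (SE), -0.15 ± 0.14 for FLT1, 0.32 ± 0.33 for TEK, 0.10 ± 0.24 for PECAM1 and -0.30 ± 0.19 for ABCB1, each with an adjusted p of 1 by edgeR. The ratio for VWF was 0.05, 0.06 and 0.06 without daughter 5, 2 or 9, and 0.28 without daughter 10. For FLT1 it was -0.06 without daughter 2, and the ratio for TEK rested on daughter 6 and was -0.02 without it.

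The sides taken differed between the genes. More daughters had the paternal copy higher for TEK (5 of 7), fewer for VWF (4 of 10) and FLT1 (2 of 8), and PECAM1 was split at 3 of 6. ABCB1 had the maternal copy higher in 7 of 7, for which the exact sign-flip test gave an unadjusted exact p of 0.0156, the smallest that 7 daughters allow. An adjustment over 2981 genes could not pass the threshold from that p unless many other genes reached it too. The adjusted value of 1 for ABCB1 therefore says nothing about its direction. With this test 83 of the 2981 genes had an unadjusted p under 0.05, and genes on 1 side in every daughter were not counted. Daughter 1, with 4 paternal reads and 1 maternal read of ABCB1, lay on the other side but fell below the read minimum. The same two-sided test gave exact p-values of 0.496 for VWF, 0.195 for FLT1, 1 for PECAM1 and 0.531 for TEK.

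Single animals were set against the whole table in the same way. Of 32 measurements of the 5 genes with 20 or more reads, 6 had an interval that left out 50%, against 22% of 22693 measurements of all genes. These were 4 on the paternal side (10.5% of all measurements) and 2 on the maternal side (11.5%). By these intervals the share of unequal measurements among the 5 genes, 18.8%, was near that of the table, and no more is read from it. VWF held 4 of the 6, in 9 daughters with enough reads. None of the 32 reached 90% on 1 side, which 1.60% of all measurements did, and 25 (78.1%) lay between 40% and 60%, against 74.5% of all. After an exact binomial test adjusted over all 22693 measurements the same 6 were called, 18.8% of the 32 against 10.4% of all. That difference was not tested, and VWF gave 4 of the 6. Adjusted p-values of the exact binomial test lay between 1.31e-05 for VWF in daughter 5 and 0.0387 for FLT1 in daughter 2. These intervals and tests cover counting error only, since sequencing reads are not independent molecules.

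The second comparison asked whether the balance of a gene differed between animals by more than counting error. A chi-square test of equal paternal shares over daughters called 40.3% of the 2981 genes, so being called is common. VWF was called, with a chi-square of 7.39 per degree of freedom (adjusted p = 9.13e-10), and it was called without any 1 of the daughters, at 5.31 to 8.31. TEK was called at 3.67 (adjusted p = 0.00442), but not without daughter 6 (1.58, adjusted p = 0.275) nor without daughter 3 (2.32, adjusted p = 0.0889). FLT1, with 1.69 (adjusted p = 0.192), PECAM1, with 0.858 (adjusted p = 0.615), and ABCB1, with 0.150 (adjusted p = 0.990), were not called. For FLT1 the value was 0.695 without daughter 2.

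In chi-square per degree of freedom, the 5 genes therefore spread from among the more variable to among the most even of the table. For the same spread of shares this measure grows with the number of reads, so it ranks genes by depth as well. The median over all genes was 2.01 per degree of freedom. Of the genes tested, 88.4% had a lower value than VWF, 73.6% than TEK, 42.1% than FLT1, 17.1% than PECAM1 and 0.268% than ABCB1. For ABCB1 the shares differed between daughters by less than counting alone would give on average. In SD of the share, which grows as reads fall, the values of 11.8 percentage points for VWF and 16.9 for TEK stood against a median of 9.53 over all genes. By this measure 65.3% of genes had a lower value than VWF, 85.5% than TEK and 4.90% than ABCB1, at 3.64. Reads per daughter were fewer for TEK, PECAM1 and ABCB1, with medians of 19.5, 30 and 28, than for VWF and FLT1, with 198 and 91, which limits what could be called in them.

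**Figure D3:**
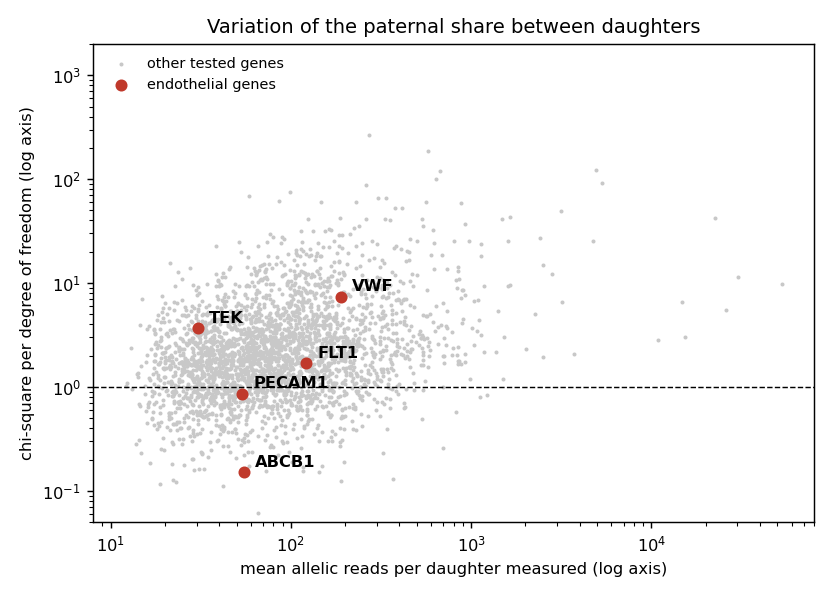
Chi-square per degree of freedom of equal paternal shares over daughters (vertical, log axis) against mean allelic reads per daughter (horizontal, log axis) for the genes tested, with the 5 endothelial genes in red. The dashed line at 1 is the average that counting error alone gives. VWF at 7.39 and TEK at 3.67 lay above the median of 2.01, and ABCB1 at 0.150 lay near the lower edge.

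The same animal could be unequal on 1 side for 1 gene and not for another. In daughter 2, VWF lay on the paternal side and FLT1 on the maternal side, while PECAM1 and TEK had 52.7% and 58.1%. Daughter 5 had VWF at 66.4%, FLT1 at 53.9% and ABCB1 at 42.2%. Daughter 6 had TEK at 77.6%, PECAM1 at 63.6%, VWF at 48.2% and ABCB1 at 43.1%. In daughter 9 VWF was at 71.7% with FLT1 at 53.2%, TEK at 52% and PECAM1 at 51.2%. Summed over the genes with 10 or more reads, the paternal share ran from 39.9% in daughter 10 (107 of 268 reads) to 57.4% in daughter 5 (368 of 641 reads). VWF held 182 of the 268 reads, and in daughter 5 FLT1 had 308 and VWF 238 of the 641.

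Half-sisters, who may or may not have received the same copy from their shared parent, were set side by side without a test, since there are too few pairs. Daughters 4 and 5, with the same father, had VWF at 51.7% and 66.4%, FLT1 at 45.6% and 53.9%, TEK at 45% and 63.2%, PECAM1 at 45.6% and 41.7% and ABCB1 at 45.9% and 42.2%. The VWF intervals of these 2 sisters did not overlap (46.7 to 56.7 and 60.2 to 72.1). Daughters 1, 7 and 8, with the same father, had VWF at 45.5%, 49.2% and 44.9%, all with intervals that included 50%. Daughters 6 and 10, with the same mother, had VWF at 48.2% and 36.3%, FLT1 at 46.9% and 49.2%, and ABCB1 at 43.1% and 42.9%. Daughters 2 and 9, the 2 with the highest VWF shares, have different labelled parents.

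The title prefixes 10203 (6 daughters) and 10480 (4 daughters), treated as a batch, were compared next. VWF had a mean paternal share of 50.5% ± 15.1 in prefix 10480 and 54.2% ± 10.3 in prefix 10203 (SD, n = 4 and 6), with unequal daughters in both. ABCB1 had 40.1% ± 2.68 and 44.9% ± 2.89 (SD, n = 3 and 4), and FLT1 49.4% ± 3.64 and 46.2% ± 5.89 (SD, n = 3 and 5). For TEK the means were 56.0% ± 5.66 and 53.5% ± 20.4 (SD, n = 2 and 5), and for PECAM1 47.8% ± 4.75 and 50.9% ± 9.64 (SD, n = 2 and 4). The interaction of prefix and parental column called none of the 5 genes, each with an adjusted p of 1 by edgeR, and 0.0335% of the 2981 genes tested. The difference in log2 ratio, prefix 10480 minus 10203, was -0.37 ± 0.39 for VWF and -0.37 ± 0.43 for ABCB1 (SE).

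Genes beside VWF, FLT1 and TEK on the chromosome were examined in the unequal daughters, a step added after the values were seen. The order of genes came from the T2T-MFA8v1.1 table. The 2 nearest genes among those tested were taken on each side, and values are given for the nearest. For the second nearest, every interval from 10 or more reads in these daughters included 50%. NDUFA9, a respiratory chain subunit and the nearest tested gene on 1 side of VWF, had a paternal share of 60.1% in daughter 9 (56.4 to 63.6, 711 reads), on the side of VWF. In daughter 5 it had 46.6% (43.7 to 49.6, 1103 reads), on the other side. In daughter 2 it had 53.6% of 760 reads (49.998 to 57.1) and in daughter 10 45.0% of 373 reads (40.1 to 50.1). Both lay on the side of VWF, with intervals that just included 50%. TNFRSF1A, a receptor for tumour necrosis factor on the other side of VWF, had 55.0% in daughter 5, 60% in daughter 9 and 51.1% in daughter 10, and each interval included 50%. In daughter 2 it had no value or fewer than 10 reads.

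Beside FLT1, the receptor gene FLT3 had 63.8% paternal reads in daughter 2 (55.1 to 71.6, 127 reads), opposite to the 37.4% of FLT1. SLC7A1, a cationic amino acid transporter gene on the other side of FLT1, had 56.1% there (44.1 to 67.4). ACO1, an iron-regulated aconitase gene next to TEK, had 48.5% in daughter 6 (40.3 to 56.9, 136 reads), where TEK had 77.6%. In daughter 3 ACO1 had 73.0% (63.0 to 81.2, 89 reads), where TEK had 23.5%. MTAP, a purine salvage enzyme on the other side of TEK, had 50.7% of 73 reads in daughter 3 and no value in daughter 6. None of these neighbours was unequal on the side of FLT1 or TEK in the daughters named. Genes that were not tested can lie between, and distances were not measured, so the neighbours need not be close.

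The genes whose log2 paternal over maternal ratio ran most like that of each gene over daughters were found by Pearson correlation, which is given as a description because the highest of many correlations is high by selection. For VWF the closest of 590 genes was TARSL2, with r = 0.880 and a Spearman rho of 0.927 over 10 daughters, followed by DIS3 (r = 0.854) and ALG8 (r = 0.851). FLT1 was most like NELL2, MAP2K7 and RIC3, with r of 0.937, 0.925 and 0.918 over 7 daughters and among 1275 genes. PECAM1 was most like ABCG2, PDE2A and AFAP1L2, with 0.980, 0.947 and 0.945 over 6 daughters and among 760 genes. For ABCB1 they were FAM129B, TRMU and ANKRD26, with 0.935, 0.930 and 0.926 over 6, 6 and 7 daughters and among 1461 genes. For TEK, among 1400 genes, they included TTC38, with 0.981 over 6 daughters, and KDM4C, with 0.963 over 7 daughters, which is on the chromosome of TEK.

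Other vessel genes were read from the same fits. Of the 13 tested members of the endothelial list, the 5 genes included, 0 were called by edgeR, with a median log2 ratio of 0.01 against -0.01 over all genes, and the chi-square test called 5 (38.5%, against 40.3% of all genes). The 3 called beside VWF and TEK were TJP1, a tight junction scaffold, at 45.3% ± 6.54 (SD, n = 9), EGFL7, a matrix protein secreted by endothelium, at 41.4% ± 10.8 (SD, n = 9), and PTPRB, a phosphatase that acts on TIE2, at 51.7% ± 12.2 (SD, n = 10). EGFL7 ranged from 26.2% in daughter 10 to 59.3% in daughter 9. EMCN, an endothelial sialomucin, had 51.8% ± 6.67 (SD, n = 9). KDR, the main signalling receptor for vascular endothelial growth factor and named here outside the rule, had 47.1% ± 11.5 (SD, n = 7), close to the 47.4% of FLT1.

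In the list of growth factor and angiopoietin signalling, to which FLT1 and TEK belong, 16 of 38 genes were tested, 0 were called by edgeR and 6 (37.5%) by the chi-square test. PRKCA, a protein kinase C, had 47.4% ± 5.76 (SD, n = 7), the Notch receptor NOTCH1 51.1% ± 5.06 (SD, n = 9) and the hypoxia factor EPAS1 48.8% ± 4.51 (SD, n = 7). The growth factor gene FIGF, the older symbol of VEGFD, had 40.4% ± 13.2 (SD, n = 7). Under that symbol FIGF had no chromosome in the gene table used, so whether it is autosomal was not checked. PLXND1, a semaphorin receptor, had 53.1% ± 11.04 (SD, n = 8) and the adaptor SHC2 54.8% ± 16.7 (SD, n = 8). FIGF, PLXND1, SHC2 and PRKCA were among the 6, with TEK and PTPRB.

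Among 12 tested genes of the barrier transporter list, ABCB1 stood at the maternal end with SLC38A5. The other drug efflux pumps had means closer to 50%, with ABCG2 at 52.4% ± 13.7 (SD, n = 10), ABCC1 at 51.2% ± 7.05 and ABCC4 at 51.7% ± 7.14 (SD, n = 9 each). Of these, ABCG2 was called by the chi-square test (adjusted p = 4.13e-07), with a range from 25.4% to 75.4%. LRP1, a scavenger receptor that is also abundant outside vessels, had 50.2% ± 5.06 (SD, n = 10), and the amino acid transporter SLC7A1 50.9% ± 4.32 (SD, n = 7). The X-linked glutamine transporter SLC38A5 had 40.7% ± 25.3 (SD, n = 7), and its daughters ran from 18.2% to 86.0%. The flippase ATP10A, at 52.5% ± 8.77 (SD, n = 8), and the insulin receptor INSR, at 51.8% ± 14.2 (SD, n = 9), were called as well, so 4 of 12 were (33.3%). SPOCK2, a proteoglycan, was even at 50.7% ± 1.92 (SD, n = 6). No gene of the list was called by edgeR.

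In the list around VWF and platelet adhesion 4 of 22 genes were tested, with 0 called by edgeR and 3 by the chi-square test, VWF itself among them, against 40.3% of all genes. TFPI, the tissue factor pathway inhibitor, had 44.0% ± 18.3 (SD, n = 5) and the plasminogen activator PLAT 44.5% ± 10.4 (SD, n = 6). Mural cells, the pericytes and smooth muscle of the vessel wall, had 4 of 22 genes tested. NOTCH3 had 42.2% ± 8.04 (SD, n = 9), ACTA2, smooth muscle actin, 43.5% ± 8.58 (SD, n = 6), MYH11, smooth muscle myosin, 55.5% ± 10.2 (SD, n = 7) and the potassium channel subunit ABCC9, the 1 gene called by the chi-square test, 55.7% ± 16.8 (SD, n = 5). Of the vessel matrix list 9 of 21 were tested, with 0 called by edgeR and 3 by the chi-square test, namely FN1, fibronectin, at 54.8% ± 11.6 (SD, n = 10), the basement membrane collagen COL4A2 at 49.0% ± 6.57 (SD, n = 10) and PDGFRA at 51.4% ± 8.20 (SD, n = 7). ITGB1, an integrin subunit, had 51.8% ± 9.27 (SD, n = 8). PDGFRA is also a marker of oligodendrocyte precursors. The share of measurements whose interval left out 50% was 39.3% of 28 in the mural cell list, 25% of 56 in the matrix list, 25% of 28 in the platelet adhesion list, 21.1% of 90 in the endothelial list, 20.7% of 87 in the transporter list and 16.8% of 107 in the signalling list, against 22% over all genes.

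**Figure D4:**
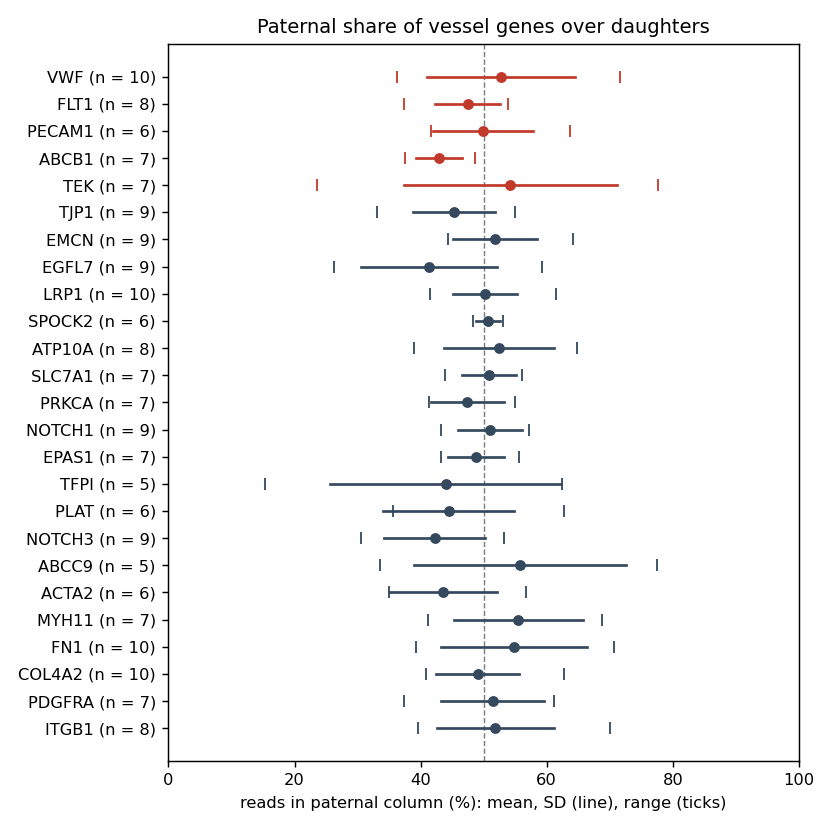
Mean paternal share over daughters (points, percent, horizontal axis), with SD as lines and lowest and highest daughter as ticks, for the 5 endothelial genes (red, top) and the most-read tested genes of the vessel lists (dark). The means lay between 41.4% for EGFL7 and 55.7% for ABCC9, and the range of TEK, 23.5% to 77.6%, was wider than that of FLT1, 37.4% to 53.9%.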

How the data were processed

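Total RNA was sequenced after ribosomal RNA depletion in stranded paired-end libraries, and reads were aligned with Novoalign, per the labels and the submitters' processing notes. The authors deposited whole-number counts per gene for a maternal and a paternal column of each daughter, 20 columns on the build macFas5, per the file headers. The file name says that redundant genes were summed. The phasing of alleles and the read filters are not given in the labels or headers, so a position assigned to the wrong parent, or reads favouring 1 allele in alignment, would shift a share. Columns were matched to samples by title. Where a gene lacked a value in a daughter, both columns lacked it, and it entered the fits as 0.

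The paternal column was tested against the maternal one in edgeR 4.0.16 (R 4.3.3, glmQLFit with the robust option and glmQLFTest). Each daughter was a block, and both of its columns had its total reads as library size. At least 10 reads in at least 5 daughters were required, which 2981 genes had. The Benjamini-Hochberg threshold was 0.05 over all genes tested, and DESeq2 1.42.0 was the other tool. The columns of 1 daughter come from 1 animal, which is why the block is in the model. Standard errors were taken from the fold change and its F value. Means use daughters with 10 or more reads, counts of 95% Wilson intervals 20 or more, and log2 ratios 0.5 added to each count. The chi-square and binomial tests treat reads as independent. The edgeR model of the parental columns was also run on simulated counts, and DESeq2 was not. Each simulated gene had the same expected ratio in all daughters. The simulation therefore does not show how often a ratio that varies between daughters would be called. Intervals and means used Python 3.11.15, SciPy 1.17.1 and statsmodels 0.14.6.

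Depth ranged from 30090 to 999471 allelic reads. Alternatives were another normalisation, other read minimums, no filter, DESeq2, a sign-flip test, no block, each title prefix alone and leaving out each daughter. The 5 genes, lists and naming rule were chosen with earlier results of these data known. The rule names up to 4 tested genes per vessel list by read number, list genes past a threshold, the 3 genes closest to each of the 5 by correlation, ABCB4, TPH2 and SLC6A4. SLC6A4 had reads in 2 daughters, 19 and 404. No gene or protein sequence was used here. A gene that the rule names is not reported here.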

Additional observations from a re-analysis of the deposited data

How the results depend on the processing

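Of 247 values recomputed under an alternative, 233 were labelled as kept, by rules that differed with the kind of value. Tested values had to keep their direction and their side of the threshold, and counts had to stay within a fixed ratio of the main count. Mean shares had to move by less than the SD over daughters. Leaving out 1 daughter cannot move a mean that far, so the label was fixed in advance for those values. The count of genes called between the parental columns was 0, and 2 with no filter on low counts (FAM199X and ZIM2). Leaving out each daughter gave 0 to 1, the 1 being DLK1 without daughter 6. For VWF the log2 ratio was -0.0024 with no replicate block, which ignores that both columns come from 1 animal, and -0.044 in title prefix 10480 alone. Leaving out each daughter gave ratios from -0.020 to 0.19 for PECAM1 and from -0.015 to 0.54 for TEK, the lowest without daughter 6 in both, and the mean ratio of PECAM1 in the sign-flip test was -0.0013. None of these was called. When each daughter was left out, VWF ran from 0.05 to 0.28, ABCB1 from -0.39 to -0.26 and FLT1 from -0.21 to -0.06. ABCB1 was -0.03 with no replicate block, -0.56 in prefix 10480 and -0.19 in 10203, and FLT1 -0.03 in prefix 10480. A minimum of 1 read moved the mean share of ABCB1 to 47.5%, and a minimum of 50 left 1 daughter for TEK, at 77.6%. The chi-square test called 725 genes of 1369 (53%) at 50 reads or more, against 1201 of 2981 (40.3%). Fewer genes entered, and the share called rose with the read minimum, being 44.6% at 20 reads or more. For TEK it gave 1.58 to 4.41 per degree of freedom when each daughter was left out, with adjusted p between 0.00214 and 0.275. The prefix interaction called 1 gene, and 0 with no filter or with DESeq2. Leaving out each daughter left 4 to 6 unequal measurements of the 5 genes. Depth limits TEK, PECAM1 and ABCB1 most, and daughter 1 in all of them.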
